A study of Mus musculus with 7 samples.

Results

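Cells carry receptors that recognise RNA or DNA where it should not be, and 10 such genes and their adaptors were followed here in mouse tumours: Ddx58, Ifih1, Dhx58, Mavs, Tmem173, Mb21d1, Tlr3, Aim2, Ifi204 and Eif2ak2. They were taken by symbol from a table of 24421 genes, and all 10 had a row under the listed symbol. The tumours came from 7 mice at week 4, all given anti-PD-1, an antibody that releases a brake on T cells. Of these, 3 mice also received anti-KLH, a control whose target, a limpet protein, mice do not have, and 4 received anti-Lair1, written anti-LAIR1 below, against a leukocyte receptor that binds collagen and inhibits the cell. The comparison asks what the second antibody adds to PD-1 blockade in these genes.

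The labels name only the tissue, tumour, and the antibodies. The series text describes 2 models, and the labels do not say which of them gave these tumours. The first is 344SQ, a lung cancer line from mice with the K-rasLA1 and p53 R172H alleles, placed under the skin of male and female 129/Sv mice aged 6 to 8 weeks. Its doses were 10 mg/kg for anti-LAIR, and 8 mg/kg for anti-PD-1. The other is a mouse with KrasLSL-G12D and p53fl/fl alleles, in which adenovirus carrying Cre was given into the trachea at 3 to 4 months and antibodies 2 months later. A line placed under the skin grows outside the lung, and in the engineered mouse tumours arise only where the virus delivers Cre. Control mice were named LOHM (2 mice) or KWM (1 mouse) and all 4 anti-LAIR1 mice WTSV, so whatever these prefixes stand for cannot be told apart from the treatment.

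RIG-I (Ddx58) and MDA5 (Ifih1) bind viral or misplaced cellular RNA in the cytosol and signal through MAVS, an adaptor on mitochondria, to kinases and factors that switch on type I interferon. Cytosolic DNA is bound by cGAS (Mb21d1), which makes a cyclic dinucleotide that activates STING (Tmem173). The other genes encode LGP2, a RIG-I relative without signalling domains of its own (Dhx58), the DNA sensors AIM2 and IFI204, the RNA-activated kinase PKR (Eif2ak2), and TLR3, which sits in endosomes and not in the cytosol, although it is grouped with these genes. Several of the sensors are themselves induced by interferon, through promoter elements that interferon-activated factors bind.

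Because several of these genes had their highest levels in the same libraries, their promoters were read from a RefSeq table (GRCm38.p6), 250 bases before to 50 bases after a start site. Those of 7 of the 10 genes were used: Ddx58, Ifih1, Mavs, Mb21d1 (listed as Cgas), Tlr3, Aim2 and Eif2ak2. Dhx58 and Ifi204 had no entry there, and Tmem173 was left out of the search. They were searched on both strands for the interferon-stimulated response element, spelled GAAANNGAAA, and for the gamma-activated site, spelled TTCNNNGAA. The first was present in Ddx58, Ifih1 and Eif2ak2, 3 of the 7, and in 3.44% of all 32851 promoters in the table. The second was present in Eif2ak2 and in 8.3% of all promoters. Mavs, Mb21d1, Tlr3 and Aim2 had neither. Between the groups, the level of Mavs differed least of the 10 genes and that of Mb21d1 most, on the log2 scale. Below are the 3 promoters with a match and, as an example without, that of Mavs. Each is printed 5′ to 3′ on the gene's strand, with matches in capitals, from chr4:40239776-40240075 (Ddx58, minus strand), chr2:62646206-62646505 (Ifih1, minus), chr17:78882523-78882822 (Eif2ak2, minus) and chr2:131233813-131234112 (Mavs, plus).
Ddx58: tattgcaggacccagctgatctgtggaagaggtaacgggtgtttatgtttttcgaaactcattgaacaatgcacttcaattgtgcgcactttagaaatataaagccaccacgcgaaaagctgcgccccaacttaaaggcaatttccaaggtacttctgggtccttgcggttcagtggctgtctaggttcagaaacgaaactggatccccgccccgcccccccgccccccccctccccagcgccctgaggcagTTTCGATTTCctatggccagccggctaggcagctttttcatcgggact
Ifih1: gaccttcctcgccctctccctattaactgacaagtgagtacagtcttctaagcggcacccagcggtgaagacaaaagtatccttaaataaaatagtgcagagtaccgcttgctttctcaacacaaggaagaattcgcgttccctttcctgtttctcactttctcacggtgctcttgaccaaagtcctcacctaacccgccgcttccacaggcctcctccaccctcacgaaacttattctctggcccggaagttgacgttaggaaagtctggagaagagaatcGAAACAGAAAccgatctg
Eif2ak2: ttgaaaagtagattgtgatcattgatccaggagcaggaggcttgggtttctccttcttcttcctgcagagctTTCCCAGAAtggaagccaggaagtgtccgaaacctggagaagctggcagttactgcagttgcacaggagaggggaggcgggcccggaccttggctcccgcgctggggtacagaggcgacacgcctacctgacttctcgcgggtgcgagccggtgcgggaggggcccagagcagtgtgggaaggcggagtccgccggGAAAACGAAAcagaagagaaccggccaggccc
Mavs: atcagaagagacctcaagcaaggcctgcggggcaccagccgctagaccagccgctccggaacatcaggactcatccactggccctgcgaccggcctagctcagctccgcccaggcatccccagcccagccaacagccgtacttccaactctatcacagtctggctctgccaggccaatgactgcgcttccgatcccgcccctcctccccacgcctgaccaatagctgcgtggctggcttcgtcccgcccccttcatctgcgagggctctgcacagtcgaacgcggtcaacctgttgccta

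Counting the start site as base 1, the response element of Ddx58 lay at bases 3 to 12 on the opposite strand (GAAATCGAAA). That of Ifih1 lay at bases 33 to 42 (GAAACAGAAA) and that of Eif2ak2 at 19 to 28 (GAAAACGAAA), both on the gene's strand. All 3 were therefore just downstream of the annotated start. The gamma-activated site of Eif2ak2 (TTCCCAGAA) lay from -178 to -170. A match is a run of letters, and binding was not measured.

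RNA was sequenced from polyadenylated transcripts, and the deposited values are read counts per gene. Library totals ran from 9879762 to 26255727 counts. Levels are given as CPM, the count relative to the library's TMM-scaled total, and differences as log2 fold changes of anti-LAIR1 minus control from edgeR's quasi-likelihood test, with Benjamini-Hochberg adjustment over 13545 genes. Epithelial markers were abundant in every library, with summed levels of 4312 to 5112 CPM in controls and 4279 to 5319 CPM with anti-LAIR1, and lung alveolar markers summed to at least 1233 CPM in each. Nearly all of the alveolar sum was Sftpb, at 1094 CPM or more, and Nkx2-1, at 129 CPM or more, while Sftpc, Napsa and Sftpa1 were each at 5.88 CPM or less. The B cell marker Ms4a1 was at 0 in every library. Nothing in the labels says how the tumours were sampled beyond 1 mouse per library, so p-values measure the spread between these mice.

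None of the 10 genes passed the test. All 10 had enough counts to be tested, 0 had an adjusted p under 0.05, and 0% of all genes tested were called in either direction. The fitted difference was above 0 for 9 of the 10, against 49.1% of all genes tested, with a median log2 fold change of 0.50 against -0.0028 over all genes. At an unadjusted p under 0.05 stood 6 of the 10, all higher with anti-LAIR1, and 5.15% of all genes tested in either direction (3.51% in the higher direction). The 10 genes varied together over the libraries, so these are not counts of independent genes. Of their 45 pairs, 43 had a Pearson's r of log2 CPM above 0 over the 7 libraries, the full range being -0.163 to 0.969. DESeq2 also called 0 of the 10, with 7 at an unadjusted p under 0.05, while calling 0.39% of all genes and placing 5.39% at that unadjusted p. Limma-voom called 0 of the 10 and 0% of all genes, with 5 of the 10 and 7.21% of all genes at that unadjusted p. The groups did not overlap for 2 genes, Mb21d1 and Ifi204, both higher with anti-LAIR1, against 3.06% of all genes tested, and 0 were lower without overlap, against 2.51%. When single libraries were left out, the count at an unadjusted p under 0.05 was 1 of 10 without control replicate 2 (3.45% of all genes), control replicate 3 (5.26%), anti-LAIR1 replicate 1 (4.64%) or anti-LAIR1 replicate 4 (4.59%), and 9 of 10 without anti-LAIR1 replicate 3 (5.81%). Together the 10 genes took 0.0222% to 0.0274% of all counts in controls and 0.0277% to 0.0421% with anti-LAIR1.

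**Figure D1:**
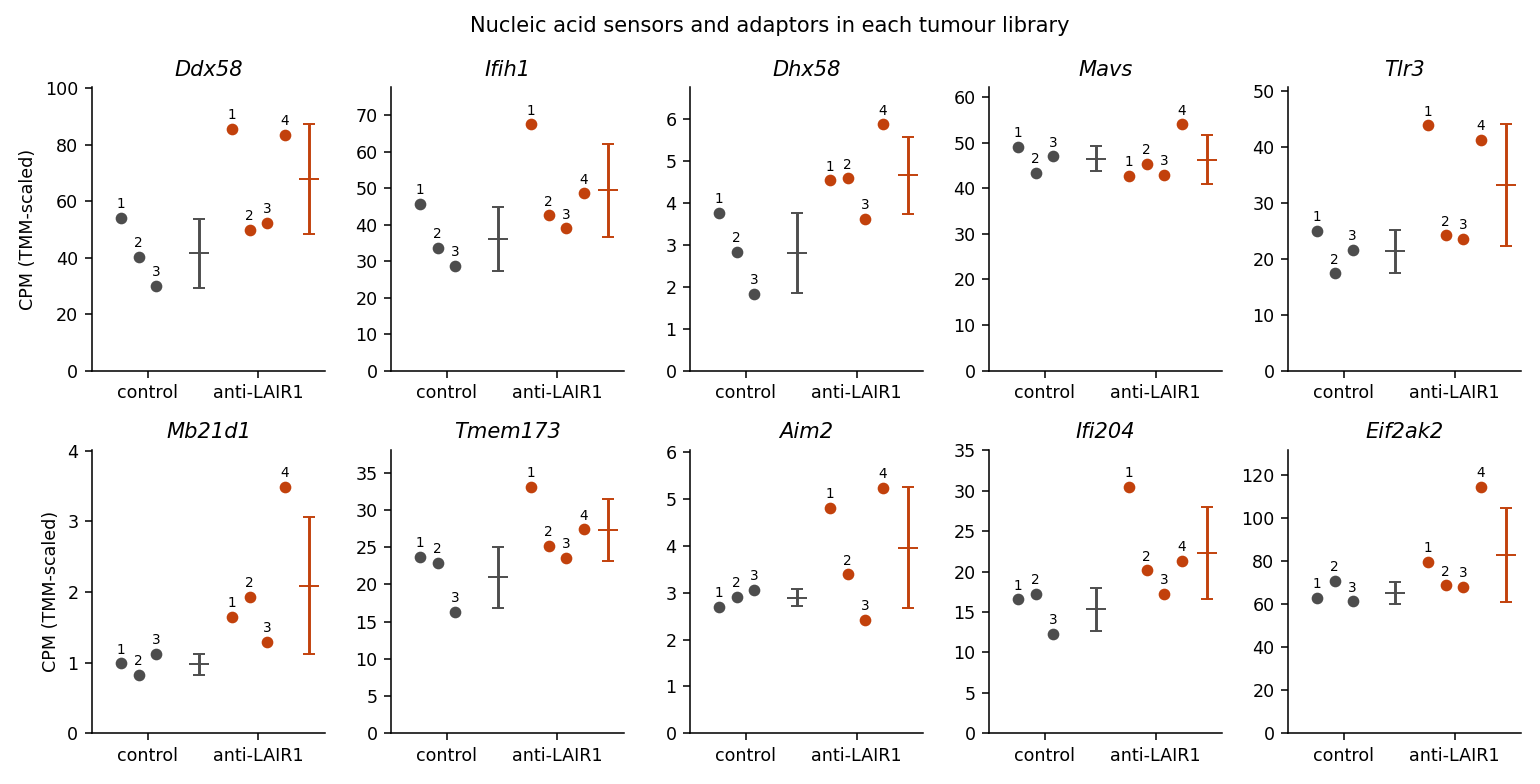
Level of each of the 10 genes in CPM (vertical axes, each from 0) in the 3 control and 4 anti-LAIR1 libraries. Points are libraries marked with their replicate number, and bars show mean and SD. The highest library is anti-LAIR1 replicate 1 or 4 for each gene, and the groups overlap for all but Mb21d1 and Ifi204.

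The RNA sensor RIG-I, encoded by Ddx58 (chromosome 4, 40203777 to 40239825, minus strand, GRCm38 as for all coordinates), was at 54.2, 40.4 and 29.9 CPM in control replicates 1, 2 and 3. With anti-LAIR1 it was at 85.7, 49.8, 52.2 and 83.5 CPM in replicates 1 to 4. Replicates 1 and 4 stood well above every control, while replicates 2 and 3 were below control replicate 1, so the groups overlapped. The means were 67.8 ± 19.4 (SD, n = 4) against 41.5 ± 12.2 CPM (SD, n = 3), and the fitted log2 difference was 0.70 ± 0.27 (SE; adjusted p = 0.944 by edgeR). Its 95% interval ran from 0.079 to 1.32.

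MDA5, encoded by Ifih1 (chromosome 2, 62595618 to 62646255, minus strand), prefers long double-stranded RNA. It was at 45.7, 33.7 and 28.7 CPM in the controls and at 67.5, 42.5, 38.9 and 48.5 CPM with anti-LAIR1. Only anti-LAIR1 replicates 1 and 4 exceeded all controls, replicate 4 by little. The fitted log2 difference of 0.45 ± 0.22 (SE) had an adjusted p of 0.98 by edgeR, and it was 0.26 without anti-LAIR1 replicate 1.

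LGP2, encoded by Dhx58 (chromosome 11, 100694884 to 100704271, minus strand), tunes signalling by the other RIG-I-like receptors. Its counts were low, from 18 to 95 per library, and it was at 3.76, 2.84 and 1.83 CPM in the controls. With anti-LAIR1 it was at 4.54, 4.59, 3.63 and 5.88 CPM. Anti-LAIR1 replicate 3 alone lay below the highest control, and the lowest library was control replicate 3, whose 18 counts have a 95% Poisson interval of 10.7 to 28.4 (counting error only). On the log2 scale the fitted difference was 0.70 ± 0.29 (SE; adjusted p = 0.953 by edgeR), and 0.49 without control replicate 3.

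The adaptor Mavs (chromosome 2, 131234063 to 131248025, plus strand), on which RIG-I and MDA5 both depend, was the flattest of the 10. It was at 49.0, 43.5 and 47.0 CPM in the controls and at 42.7, 45.3, 43.0 and 54.1 CPM with anti-LAIR1, means of 46.5 ± 2.81 (SD, n = 3) and 46.3 ± 5.31 CPM (SD, n = 4). Its log2 difference was -0.0079, with a 95% interval from -0.25 to 0.24 (adjusted p = 1.00 by edgeR). Its coefficient of variation over the 7 libraries was 8.83%, against 20.6% to 56.4% for the other 9 genes.

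The sensors were also set against Mavs within each library. The log2 ratio of Dhx58 to Mavs was from -4.68 to -3.70 in controls and from -3.57 to -3.20 with anti-LAIR1, and here the groups did not overlap. The gap was narrow beside counting error. The -3.57 was anti-LAIR1 replicate 3, whose 42 Dhx58 counts have a 95% Poisson interval of 30.3 to 56.8. The ratio of Ddx58 to Mavs overlapped slightly, reaching 0.144 in control replicate 1 and starting from 0.137 in anti-LAIR1 replicate 2, and that of Ifih1 to Mavs overlapped more widely (-0.71 to -0.10 against -0.16 to 0.66). These ratios are descriptions and were not tested.

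TLR3, encoded by Tlr3 (chromosome 8, 45395665 to 45411075, minus strand), reads double-stranded RNA in endosomes and signals through TRIF instead of MAVS. It was at 25.1, 17.4 and 21.7 CPM in the controls and at 43.9, 24.2, 23.6 and 41.3 CPM with anti-LAIR1. As for Ddx58, replicates 1 and 4 stood apart and replicates 2 and 3 lay within the control range. Its fitted log2 difference was 0.63 ± 0.26 (SE; adjusted p = 0.947 by edgeR).

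Of the DNA-sensing pair, cGAS was the rarest transcript of the group. Mb21d1 (chromosome 9, 78430518 to 78443237, minus strand) had 25, 11 and 11 counts in the controls and 25, 29, 15 and 48 with anti-LAIR1. In CPM these were 0.99, 0.823 and 1.12 against 1.65, 1.93, 1.30 and 3.49, and the groups did not overlap. In every library this exceeded the 0.119 to 0.305 CPM that 3 counts are worth. Its log2 fold change was the largest of the 10, 1.10 ± 0.42 (SE), with a 95% interval from 0.16 to 2.04 and an adjusted p of 0.934 by edgeR. Counting error is wide at this depth: the 15 counts of anti-LAIR1 replicate 3 have a 95% Poisson interval of 8.4 to 24.7, and the 11 of control replicate 3 one of 5.49 to 19.7. Without anti-LAIR1 replicate 4, the highest library, the log2 fold change was 0.74.

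STING, the receptor for the dinucleotide that cGAS makes, was more abundant. Tmem173, on chromosome 18, was at 23.7, 22.9 and 16.3 CPM in the controls and at 33.1, 25.1, 23.6 and 27.4 CPM with anti-LAIR1. Anti-LAIR1 replicate 3 lay just below control replicate 1, and the other 3 libraries were above every control. The difference on the log2 scale was 0.38 ± 0.17 (SE; adjusted p = 0.967 by edgeR), and 0.23 without control replicate 3, the lowest library. The log2 ratio of Mb21d1 to Tmem173 overlapped between the groups, from -4.80 to -3.86 in controls and from -4.33 to -2.97 with anti-LAIR1.

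AIM2 and IFI204 belong to the PYHIN family, whose genes lie close together on chromosome 1 and resemble one another. AIM2 builds an inflammasome on double-stranded DNA, and IFI204 is a mostly nuclear DNA sensor linked to STING signalling. Aim2 (173349547 to 173466040, plus strand) was at 2.69, 2.92 and 3.05 CPM in the controls and at 4.81, 3.39, 2.42 and 5.23 CPM with anti-LAIR1. The controls were close together, and anti-LAIR1 replicate 3 was lower than all of them, so this gene had both the lowest and the highest library in the same group. The fit gave a log2 difference of 0.47 ± 0.30 (SE; adjusted p = 1.00 by edgeR), and 0.30 without anti-LAIR1 replicate 4.

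Ifi204 (173747293 to 173767069, minus strand) was at 16.5, 17.2 and 12.3 CPM in the controls and at 30.5, 20.2, 17.3 and 21.3 CPM with anti-LAIR1. The groups did not overlap, but anti-LAIR1 replicate 3 at 17.27 CPM stood only just above control replicate 2 at 17.21 CPM. The fitted log2 value was 0.53 ± 0.21 (SE; adjusted p = 0.938 by edgeR), and 0.35 without anti-LAIR1 replicate 1. The sources used here do not say how reads matching several PYHIN copies were counted, so the share that belongs to Ifi204 is uncertain.

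PKR, encoded by Eif2ak2 (chromosome 17, 78850504 to 78882572, minus strand), halts translation by phosphorylating eIF2alpha when it binds double-stranded RNA. It was at 63.1, 71.0 and 61.4 CPM in the controls and at 79.9, 68.8, 68.3 and 114.7 CPM with anti-LAIR1. Anti-LAIR1 replicate 4 was far above all other libraries, and replicates 2 and 3 were below control replicate 2. By edgeR the log2 difference was 0.35 ± 0.18 (SE; adjusted p = 0.98), and 0.15 without replicate 4.

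Anti-LAIR1 replicates 1 and 4 shared the highest values. Replicate 1 was the highest of all 7 libraries for 5 genes (Ddx58, Ifih1, Tmem173, Tlr3 and Ifi204) and replicate 4 for the other 5 (Dhx58, Mavs, Mb21d1, Aim2 and Eif2ak2), where 15.9% and 19.1% of all genes tested had their highest value in these libraries. The 2 together were the top 2 libraries for 7 of the 10 genes and for 7.12% of all genes tested. Control replicate 3 was the lowest library for 6 of the 10 and for 13.8% of all genes tested. Among the 7 genes whose promoter was searched, the log2 fold changes were 0.70, 0.45 and 0.35 for the 3 with the response element (Ddx58, Ifih1, Eif2ak2). They were -0.0079, 1.10, 0.63 and 0.47 for the 4 without an exact match in the window read (Mavs, Mb21d1, Tlr3, Aim2), so the 2 sets overlapped in size. The windows of Tlr3 (45410331 to 45410630) and Aim2 (173420354 to 173420653) lay inside the ranges given for these genes. Other start sites and looser spellings were not searched, so a gene without a match may still have the element.

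**Figure D2:**
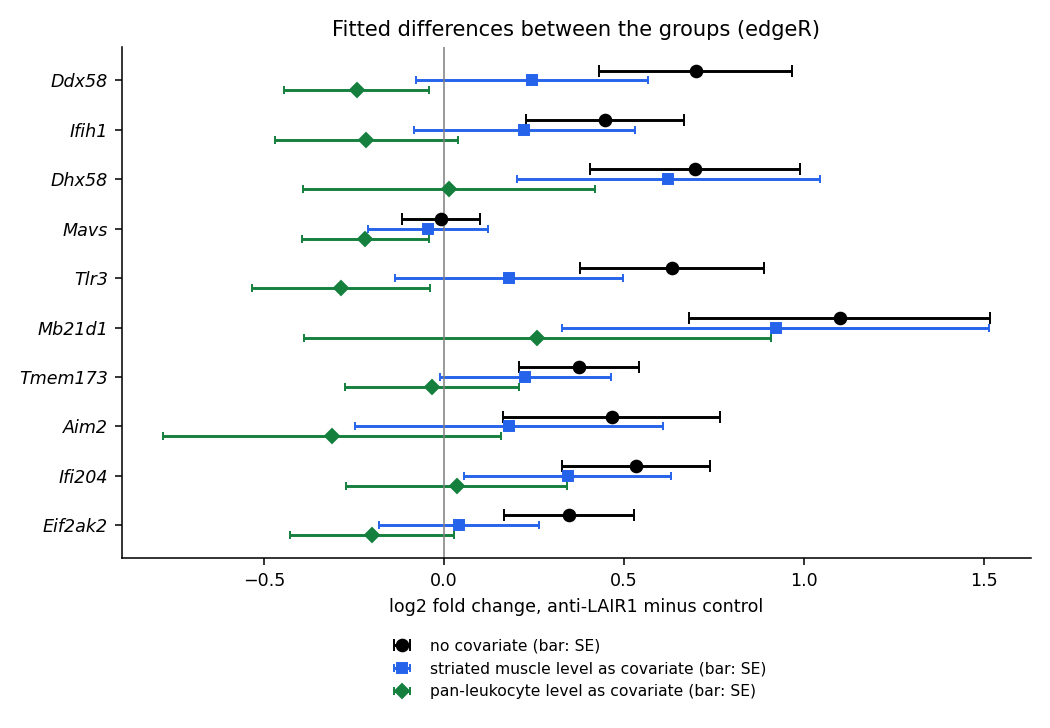
Log2 fold change of anti-LAIR1 minus control (horizontal axis) for each gene in 3 edgeR fits: with no covariate, with the striated muscle marker level and with the pan-leukocyte marker level of each library as a covariate. Bars are SEs. With no covariate 9 of the 10 genes lie above 0, and with the leukocyte level 3 do.

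Leukocyte markers differed between the groups in the same libraries. The summed level of 10 pan-leukocyte markers was from 273 to 315 CPM in controls and from 359 to 439 CPM with anti-LAIR1, without overlap. All 10 of these markers had a fold change above 0, 0 passed the test, and their median log2 fold change was 0.50, that of the sensors also being 0.50. They were not uniform, running from 0.0086 for Cyba to 0.72 for Ptprc. By edgeR 4 of the 10 were higher at an unadjusted p under 0.05 (3.51% of all genes), and 3 separated the groups (3.06%). Lcp1 alone was at 112 to 123 CPM in controls and 147 to 197 CPM with anti-LAIR1. Ordered by the mean log2 CPM of these markers, the libraries came out as they did by the mean over the 10 sensors, except that control replicate 1 and anti-LAIR1 replicate 3 changed places. In an edgeR fit with the leukocyte level as a covariate, 3 of the 10 sensors were above 0 (49.5% of all genes) with a median of -0.21, and 0 of the 10 had an unadjusted p under 0.05 (6.64% of all genes). In that fit Ddx58 was at -0.24 (SE 0.20), Tlr3 at -0.29 (SE 0.25) and Mb21d1 at 0.26 (SE 0.65). The covariate itself did not overlap between the groups, its highest control value being 4.18 and its lowest anti-LAIR1 value 4.23, so the fit has little to tell them apart. In a bulk sample, more cells of a type and more RNA of a gene per cell cannot be told apart.

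**Figure D3:**
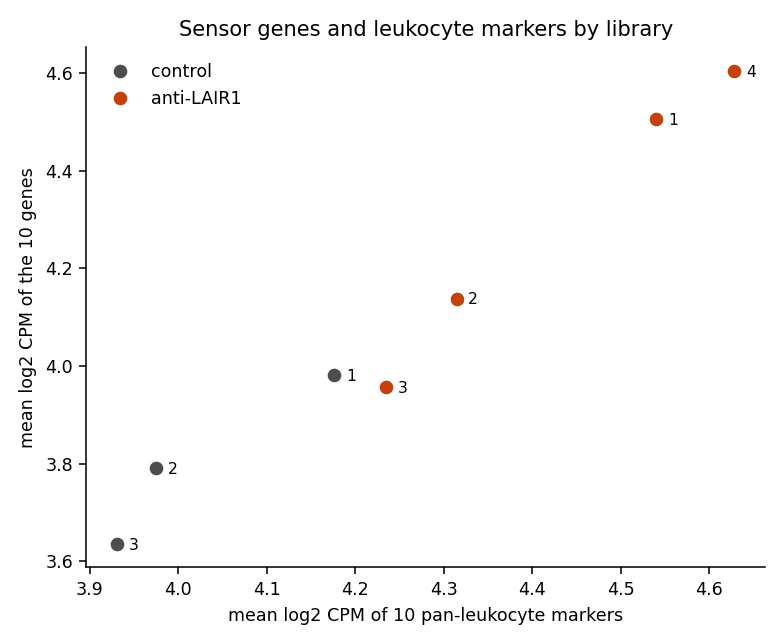
Mean log2 CPM of the 10 sensors and adaptors (vertical axis) against that of 10 pan-leukocyte markers (horizontal axis), 1 point per library with its replicate number. Control replicate 3 is lowest and anti-LAIR1 replicate 4 highest on both axes.

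Other cell type markers also differed between these libraries, and their part in the sensor values was not tested except for muscle. Monocyte and macrophage markers summed to 317 to 367 CPM in controls and 384 to 507 CPM with anti-LAIR1, with 9 of 10 above 0. Dendritic cell markers summed to 12.8 to 16.0 against 18.5 to 38.5 CPM, and all 3 tested of the 7 were above 0. T and NK cell markers summed to 2.92 to 14.1 against 6.30 to 32.7 CPM with overlap, and all 5 tested of 8 were above 0. Endothelial markers summed to 92.2 to 119 against 124 to 151 CPM, 5 of 5 being above 0. Striated muscle markers summed to 5.07 to 8.00 against 9.98 to 116 CPM, with 3 of 3 tested above 0. The muscle covariate was not this sum but the mean log2 CPM of the 7 markers. Such a mean weighs each marker alike, and it ordered the libraries differently. By it anti-LAIR1 replicate 2, at 0 CPM for Acta1, Tnnt3 and Myh4, lay below control replicate 2, so the groups overlapped. With the muscle covariate the sensor median was 0.22 with 9 of 10 above 0 (48.7% of all genes). In that edgeR fit 0 of the 10 had an unadjusted p under 0.05, and 273 of 13545 genes tested. Skin keratinocyte markers went the other way, from 24.5 to 125 against 12.9 to 24.6 CPM, both tested genes being below 0. The 125 CPM was control replicate 3, the lowest library for 6 of the 10 sensors, and the other 2 controls were at 34.7 and 24.5 CPM. Adipocyte markers summed to 8.43 to 21.3 against 8.63 to 92.5 CPM with overlap, the highest being anti-LAIR1 replicate 2, and all 3 tested of 5 were above 0 with a median of 1.14. Epithelial and fibroblast sums overlapped, with medians of 0.095 and 0.15, as did lung alveolar sums, with a median of 0.17.

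Levels can be compared between genes only per length, here as CPM per kb of annotated exon (GENCODE M21). That length joins the exons of all annotated transcripts of a gene. It may differ from the transcript expressed and from the annotation used for counting, so the order is approximate. In controls Mavs and Eif2ak2 led with 13.9 ± 0.841 and 12.7 ± 1.00 CPM per kb (SD, n = 3), followed by Tmem173 with 7.65 ± 1.49 and Ddx58 with 5.89 ± 1.72. Ifih1, Ifi204 and Tlr3 came next, with 4.41, 4.31 and 4.11 CPM per kb. Dhx58 and Aim2 were at 0.859 and 0.825, and Mb21d1 was last at 0.237 ± 0.0361. Neighbours in this order had overlapping libraries in both groups, except Eif2ak2 against Tmem173 and Tlr3 against Dhx58, which were apart in both groups, and Aim2 against Mb21d1, apart in controls only. With anti-LAIR1, Eif2ak2 averaged 16.2 ± 4.27 and Mavs 13.8 ± 1.59 CPM per kb (SD, n = 4). By this measure the adaptors were higher in controls than the sensors that feed them: Mavs above Ddx58, Ifih1 and Dhx58, and Tmem173 above Mb21d1.

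**Figure D4:**
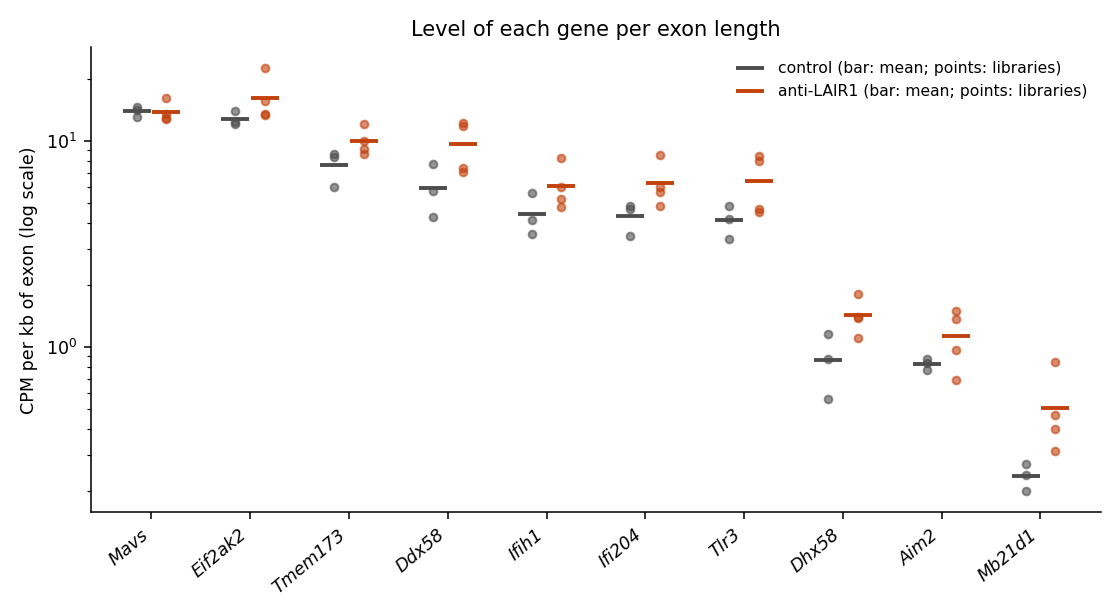
Level of each gene in CPM per kb of exon (vertical axis, log scale), ordered by the control mean. Points are libraries and bars are group means. Mb21d1 is lowest in both groups, at 0.237 CPM per kb in controls and 0.506 with anti-LAIR1.

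The genes these sensors work with mostly showed smaller differences, and 0 genes of any pathway list passed the test in either direction. At an unadjusted p under 0.05, and higher with anti-LAIR1, stood 4 of 18 genes of RIG-I-like receptor signalling, 0 of 14 of cGAS-STING signalling, 3 of 10 endosomal receptor genes, 3 of 6 AIM2 inflammasome genes, 5 of 6 other PYHIN genes, 0 of 10 PKR partners and 3 of 6 interferon receptor and factor genes, against 3.51% of all genes tested. Groups were apart, anti-LAIR1 higher, for 3, 0, 1, 2, 3, 0 and 0 of these, against 3.06% of all genes. Of 18 further genes of RIG-I-like receptor signalling, 11 were above 0 with a median of 0.028. The 2 with the smallest p were both interferon-inducible: Irf7, the factor that amplifies interferon production, averaged 38.1 ± 11.5 (SD, n = 4) against 18.3 ± 8.11 CPM (SD, n = 3), and Ddx60, a helicase linked to RIG-I, 12.6 ± 6.71 against 5.21 ± 1.59 CPM. Irf7 separated the groups and Ddx60 did not. Their log2 fold changes were 1.03 and 1.25 (adjusted p = 0.868 and 0.900 by edgeR). Trim25, a ubiquitin ligase that activates RIG-I, was named for its place in the pathway after its values were seen: it averaged 139 ± 5.61 against 118 ± 9.96 CPM, also without overlap (log2 fold change 0.24).

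Of 14 genes of cGAS-STING signalling and its nucleases, 6 were above 0, with a median of -0.014. The smallest p belonged to Samhd1, an enzyme that depletes deoxynucleotides, with 192 ± 50.3 against 137 ± 36.9 CPM, and to Trim32, a ubiquitin ligase that acts on STING, with 27.5 ± 1.10 against 30.8 ± 6.15 CPM. Both overlapped between the groups. Of 10 partners of PKR and other eIF2alpha kinases, 6 were above 0 with a median of 0.033. Adar, which edits double-stranded RNA, averaged 125 ± 17.1 against 102 ± 21.1 CPM, and Ppp1r15a, which helps to reverse eIF2alpha phosphorylation, 23.0 ± 2.22 against 25.9 ± 3.81 CPM.

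Endosomal receptors and their adaptors had a median of 0.16, with 8 of 10 above 0. Tlr9, the receptor for CpG DNA, had a fitted log2 difference of 1.77 ± 0.46 (SE; adjusted p = 0.652 by edgeR), from 0.752, 0.449 and 0.407 CPM in the controls to 1.19, 2.00, 1.55 and 3.05 CPM with anti-LAIR1. The groups did not overlap, but levels were low. Unc93b1, which carries these receptors to endosomes, averaged 26.6 ± 4.20 against 20.2 ± 3.73 CPM.

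AIM2 inflammasome genes had a median of 0.46 with 5 of 6 above 0. Casp4, the caspase of the non-canonical inflammasome, averaged 4.35 ± 2.64 against 1.75 ± 0.544 CPM, and Casp1, the protease that AIM2 activates, 4.52 ± 2.13 against 2.25 ± 0.453 CPM. Neither overlapped between the groups, and anti-LAIR1 replicate 1 was the highest library for both. The other PYHIN genes had the largest median, 0.91, with 6 of 6 measured above 0. Ifi202b, which lacks the domain that assembles inflammasomes, averaged 30.0 ± 4.02 against 20.3 ± 1.54 CPM (log2 difference 0.56 ± 0.13, SE; adjusted p = 0.624 by edgeR), and Ifi205 averaged 5.79 ± 1.89 against 3.07 ± 0.72 CPM. The same reservation about reads shared among PYHIN copies holds for all of these.

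Of the type I interferons that these pathways induce, only Ifnb1, Ifna1, Ifna2 and Ifna4 were looked at, and their transcripts were nearly absent. Ifna1, Ifna2 and Ifna4 had 0 counts in every library. Ifnb1 was at 0 in the 3 controls and in anti-LAIR1 replicates 1 and 3, and at 0.133 and 0.0727 CPM in replicates 2 and 4, under what 3 counts are worth in those libraries. Whether these genes were expressed at a lower level was not detectable at this depth. Ifng, the other interferon listed, had too few counts to be tested. It was at 0.436, 0.224 and 0 CPM in the controls and at 0.395, 0.266, 0.518 and 0.727 CPM with anti-LAIR1. The 6 tested genes among interferon receptors and response factors were all above 0, with a median of 0.47. Stat2 averaged 105 ± 22.3 against 69.9 ± 19.7 CPM and Irf1 144 ± 45.4 against 83.6 ± 31.2 CPM, both with overlapping groups.

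**Figure D5:**
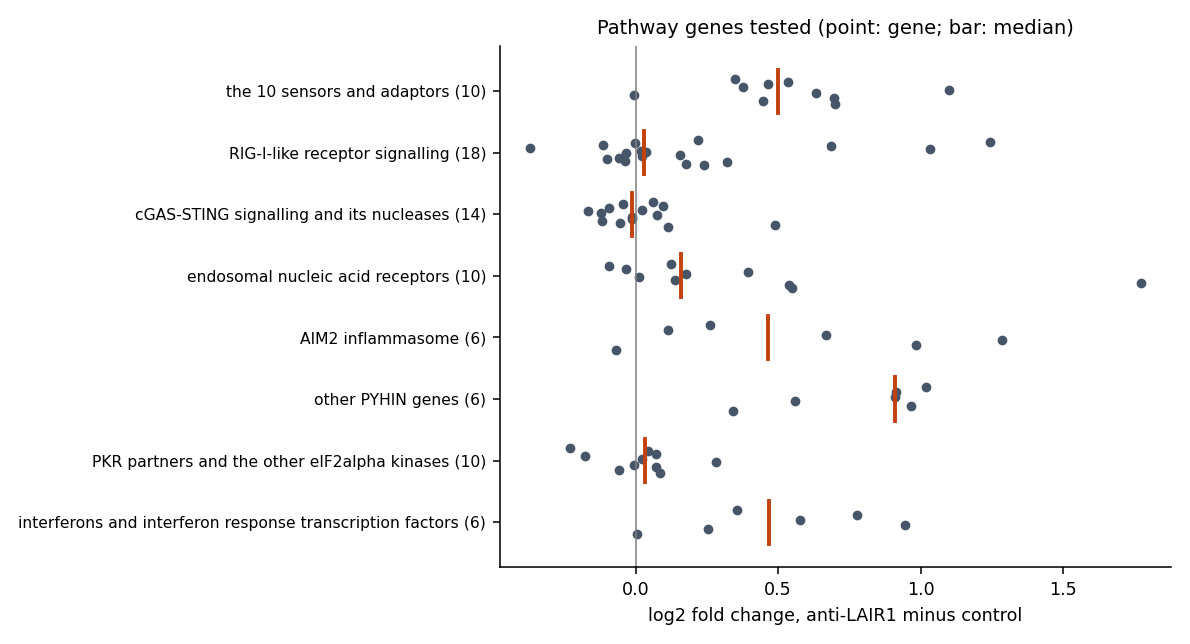
Log2 fold change of anti-LAIR1 minus control (horizontal axis) for each tested gene of the 10 sensors and adaptors and of 7 pathway lists, with the number tested in parentheses. Points are genes and bars are medians, highest for the other PYHIN genes at 0.91.

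Across the 7 libraries, the genes outside the group whose log2 CPM ran most like the mean of the 10 included Gbp4, Gm4951, Mpeg1 and Psmb8. For these 4, Pearson's r over 7 libraries was from 0.982 to 0.989, ranked among 12312 genes, and from 0.962 to 0.993 after group means were removed. With so many genes and 7 points high values arise readily, and these are descriptions. Gbp4 encodes an interferon-inducible GTPase, Mpeg1 a pore-forming protein of macrophages, and Psmb8 a subunit of the immunoproteasome. For single genes the closest were Gbp8 for Ddx58 (r = 0.994), Zw10 for Dhx58 (0.994), Inafm1 for Mavs (0.976) and Creb3 for Tmem173 (0.982). They were Runx3 for Mb21d1 (0.967), Gm12250 for Tlr3 (0.991), Slc25a12 for Aim2 (0.98), Dnajc24 for Ifi204 (0.982) and Arrb1 for Eif2ak2 (0.99).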

How the data were processed

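Per the submitters' processing notes, the authors worked on mm10 with edgeR 3.40.1, featureCounts 2.0.1, STAR 2.7.6 and Trim Galore, and they deposited raw read counts per gene symbol. Per the labels' protocols, the kit was directional, but the sources used here do not give the strand setting, the annotation or how multi-mapped reads were counted. GENCODE M21 places a gene on the other strand over exons of Dhx58, Mb21d1, Tlr3 and Eif2ak2, none of which has a row in the table, so their reads may be included if strand was ignored.

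The fit used edgeR 4.0.16 in R 4.3.3 (filterByExpr, minimum count 10; TMM; robust quasi-likelihood fit of all 7 libraries; Benjamini-Hochberg threshold 0.05). The SE is the fold change divided by the root of the F statistic. Log2 CPM used a prior count of 2, and intervals are 95%. Alternatives used DESeq2 1.42.0, limma 3.58.1 and other scalings, filters, covariates and subsets of libraries.

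Replicates are numbered in accession order. The 10 genes, the pathway and marker lists and the naming rule were chosen with earlier results of these data known. From each pathway list, the 2 genes with the smallest p were named, besides genes past the threshold, of which there were 0. Ifna1, Ifna2, Ifna4, Ifnb1 and Ifng were named for their role after their values were seen. Likeness was ranked among tested genes whose average log2 CPM was 1 or more, and some of the genes this names are not reported here. Of 13 other PYHIN genes listed, 6 had a row. Python 3.11.15 and matplotlib 3.10.9 drew the figures.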

Additional observations from a re-analysis of the deposited data

How the results depend on the processing

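No alternative called any of the 10 genes: over 16 of them their adjusted p ranged from 0.308 to 1.00. The count of all genes called was 54 with DESeq2 and 3 with the pan-leukocyte level as a covariate, and from 0 to 3 when single libraries were left out. The median log2 fold change of the 10 genes was -0.21 with the leukocyte covariate, 0.22 with the muscle covariate, and from 0.37 to 0.64 without single libraries. With the leukocyte covariate Ddx58 was at -0.24, Ifih1 at -0.22, Tmem173 at -0.033, Tlr3 at -0.29, Aim2 at -0.31 and Eif2ak2 at -0.20. Mavs was at -0.22 with the leukocyte covariate, 0.00044 with limma-voom, 0.026 with library totals, 0.016 after thinning to 9879762 counts, and from -0.094 to 0.033 without single libraries. Mean CPM from library totals moved by less than 1 SD for all 10 genes. No paired analysis was possible because the labels give mouse names and no replicate numbers shared between the groups. Mb21d1, with 11 to 48 counts, is limited most by depth, and its log2 fold change was 1.49 after thinning.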
